A study of Homo sapiens with 6 samples.

Results

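The genes described here are the activators of the circadian clock and the genes through which the clock acts on the rest of the cell: BMAL1, BMAL2, CLOCK, NPAS2, RORA, DBP, TEF, HLF, NFIL3 and NOCT. They were taken as every probe set of the array table whose only gene symbol is one of these names, older aliases included. This gave 24 of 49372 probe sets and 10 of 18132 genes, and 0 probe sets listed for several genes named one of them. The genes were chosen by name, from a list drawn up with the log2 differences of this comparison known. Counts over the list and the p-values of its genes are therefore descriptions of these arrays and no independent evidence.

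The cells were ARPE19, an established human retinal pigment epithelial line, grown in DMEM with 10% FBS and transfected in 6-well plates with 2.5 µg of plasmid per well. In the SATalpha group the plasmid carried GFP and satellite alpha, the tandem repeat of human centromeres, and in the GFP control group it carried GFP alone, so both groups received a GFP plasmid. There were 3 arrays of total RNA in each group. No source used here gives the time from transfection to harvest, the share of cells that took up plasmid or any synchronization of the cultures. The labels do not say whether the wells were separate cultures, so p-values measure the spread between wells. Array medians were 5.29 to 5.32 with SATalpha and 5.30 with GFP on the log2 scale. Of 13 markers of retinal pigment epithelium, 7 lay above the expression floor used below. RPE65, RLBP1, BEST1, LRAT, TYRP1 and TTR lay under it. Of the tested markers, 2 fell and 0 rose, where 13.0% of all tested genes fell. The 2 were KRT8 (-0.13) and KRT18 (-0.21), while MITF, OTX2, TYR, PMEL and SERPINF1 did not pass. Other probe sets of KRT8 differed by -0.12 to 0.30, and the other one of KRT18 by -0.09. The mean level over the 13 was 6.26 to 6.30 with SATalpha and 6.35 to 6.36 with GFP. The part of this difference in the results was not tested. Of 3 leukocyte and 4 fibroblast markers with a probe set, 0 lay above the floor. Of 4 endothelial markers 3 lay above it (PECAM1, VWF and KDR), and the mean level over the 4 was 4.81 to 4.99 with SATalpha and 4.79 to 4.92 with GFP. Of 3 markers of neurons and photoreceptors 1 lay above it (SYP), and their mean level was 5.23 to 5.37 with SATalpha and 5.25 to 5.36 with GFP. None of these 4 tested markers passed by limma or by the unmoderated test, and 0 had an unadjusted p under 0.05.

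In the clock, BMAL1 pairs with CLOCK, or with its relative NPAS2, and the pair binds E-box sequences and switches on target genes. Among these are the PER, CRY, NR1D, BHLHE and CIART repressors, which act back on the pair or on BMAL1 itself. ROR receptors such as RORA activate BMAL1 through RORE sequences, where the NR1D receptors repress it. DBP, TEF and HLF are related transcription factors of the PAR bZIP family that activate genes through D-box sequences, and NFIL3 represses through the same sequences. NOCT encodes nocturnin, an enzyme of the deadenylase fold whose RNA cycles strongly in many mouse tissues and which removes a phosphate from NADPH and NADP.

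Start-site windows of 300 bases from RefSeq, build GRCh38.p14, were available for all 10 genes, 15 windows in all, and for the 10 repressors, 13 windows. They run from 250 bases before to 50 after an annotated start. The windows printed here are those of BMAL1, TEF, HLF and NFIL3 that hold a clock or cyclic AMP motif, and that of PER2, which holds the D-box letters through which DBP, TEF, HLF and NFIL3 act. Motif matches are in capitals: RORE letters (AGTAGGTNA) in BMAL1 and, as their reverse complement, in NFIL3, the E-box (CACGTG) in both TEF windows, the cyclic AMP response element (TGACGTCA) in HLF, and an E-prime box (CACGTT) and a D-box (TTANGTAA) in PER2.
BMAL1, chr11:13277540-13277839, + strand: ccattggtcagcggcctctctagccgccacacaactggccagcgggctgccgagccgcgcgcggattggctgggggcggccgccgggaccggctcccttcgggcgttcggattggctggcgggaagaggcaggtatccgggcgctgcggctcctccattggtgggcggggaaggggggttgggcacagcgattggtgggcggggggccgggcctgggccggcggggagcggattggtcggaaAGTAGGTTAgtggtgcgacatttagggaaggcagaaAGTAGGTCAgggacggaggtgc
TEF, chr22:41367205-41367504, + strand: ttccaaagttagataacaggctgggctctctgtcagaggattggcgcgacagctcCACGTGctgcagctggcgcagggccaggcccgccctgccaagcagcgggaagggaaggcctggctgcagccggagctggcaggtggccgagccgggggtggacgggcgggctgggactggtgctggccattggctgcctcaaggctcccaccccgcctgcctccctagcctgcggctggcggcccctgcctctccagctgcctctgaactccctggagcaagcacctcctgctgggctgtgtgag
TEF, chr22:41381692-41381991, + strand: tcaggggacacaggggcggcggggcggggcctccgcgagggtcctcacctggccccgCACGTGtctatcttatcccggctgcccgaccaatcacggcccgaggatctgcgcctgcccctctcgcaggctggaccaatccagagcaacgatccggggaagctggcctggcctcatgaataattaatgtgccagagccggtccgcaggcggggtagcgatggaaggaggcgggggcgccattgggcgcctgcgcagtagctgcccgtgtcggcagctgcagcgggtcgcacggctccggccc
HLF, chr17:55264710-55265009, + strand: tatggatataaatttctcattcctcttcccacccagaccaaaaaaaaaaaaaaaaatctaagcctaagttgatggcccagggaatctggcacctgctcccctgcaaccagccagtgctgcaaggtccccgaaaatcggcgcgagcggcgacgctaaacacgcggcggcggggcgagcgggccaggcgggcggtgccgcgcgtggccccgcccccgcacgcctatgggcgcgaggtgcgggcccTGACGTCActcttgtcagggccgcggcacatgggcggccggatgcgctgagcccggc
NFIL3, chr9:91423783-91424082, - strand: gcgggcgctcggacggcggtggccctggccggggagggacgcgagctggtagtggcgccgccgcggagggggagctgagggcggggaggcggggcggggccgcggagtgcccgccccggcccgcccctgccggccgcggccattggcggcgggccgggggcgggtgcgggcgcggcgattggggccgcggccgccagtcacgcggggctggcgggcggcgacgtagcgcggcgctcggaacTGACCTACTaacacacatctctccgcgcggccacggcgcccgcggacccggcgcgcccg
PER2, chr2:238288561-238288860, - strand: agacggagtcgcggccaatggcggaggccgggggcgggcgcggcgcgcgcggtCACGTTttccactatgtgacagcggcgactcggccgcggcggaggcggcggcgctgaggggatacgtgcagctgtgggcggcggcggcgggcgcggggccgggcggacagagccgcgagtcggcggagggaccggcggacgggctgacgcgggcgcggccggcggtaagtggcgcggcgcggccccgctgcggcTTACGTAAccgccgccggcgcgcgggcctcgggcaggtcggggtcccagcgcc

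Both strands were searched, and none of the matches printed overlaps another. The BMAL1 window held RORE letters in 2 places, starting at bases 243 and 279 from its 5′ end. These letters were spelled out after that window had been seen, and they occur in 0.436% of 35116 windows, in 2 of the 15 of these genes and in 0 of the 13 of the repressors. The E-box occurs in 7.26% of all windows, in 2 of the 15 of these genes and in 5 of the 13 of the repressors. The E-prime box occurs in 5.34% of all windows, in 1 of the 15, a CLOCK window, and in 4 of the 13. The D-box occurs in 2.18% of all windows, in 0 of the 15 and in 3 of the 13, those of PER2, PER3 and NR1D2. The cyclic AMP element occurs in 1.85% of all windows and in 1 of the 15. A match describes letters in the window and shows no binding. The windows of DBP, NOCT, BMAL2, NPAS2 and RORA held none of these letters.

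With satellite alpha, NOCT, DBP and BMAL1 fell, BMAL2 rose, and CLOCK, RORA, TEF and NFIL3 did not pass the test. For these statements each gene was represented by its brightest probe set, and the lowest 40% of genes by mean level were left out, which set the floor at a log2 level of 5.19. This kept 8 of the 10 genes, while HLF and NPAS2 lay under the floor. Groups were compared with limma over 10879 genes, with Benjamini-Hochberg adjustment and a threshold of 0.05. Of the 8 tested genes, 3 fell and 1 rose. Over all tested genes 13.0% fell, 7.72% rose and 20.8% passed in either direction. The groups did not overlap for 5 of the 8, against 37.6% of all tested genes. The median log2 difference was -0.17 over the 8 and -0.02 over all tested genes. The number of genes called across the array depended on single arrays. It was 2259 with all 6, 1209 without GFP replicate 1 and 1399 without SATalpha replicate 1. The 4 genes of the list kept their calls whichever array was left out. In bulk RNA, fewer cells of a kind and less RNA per cell cannot be told apart.

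**Figure D1:**
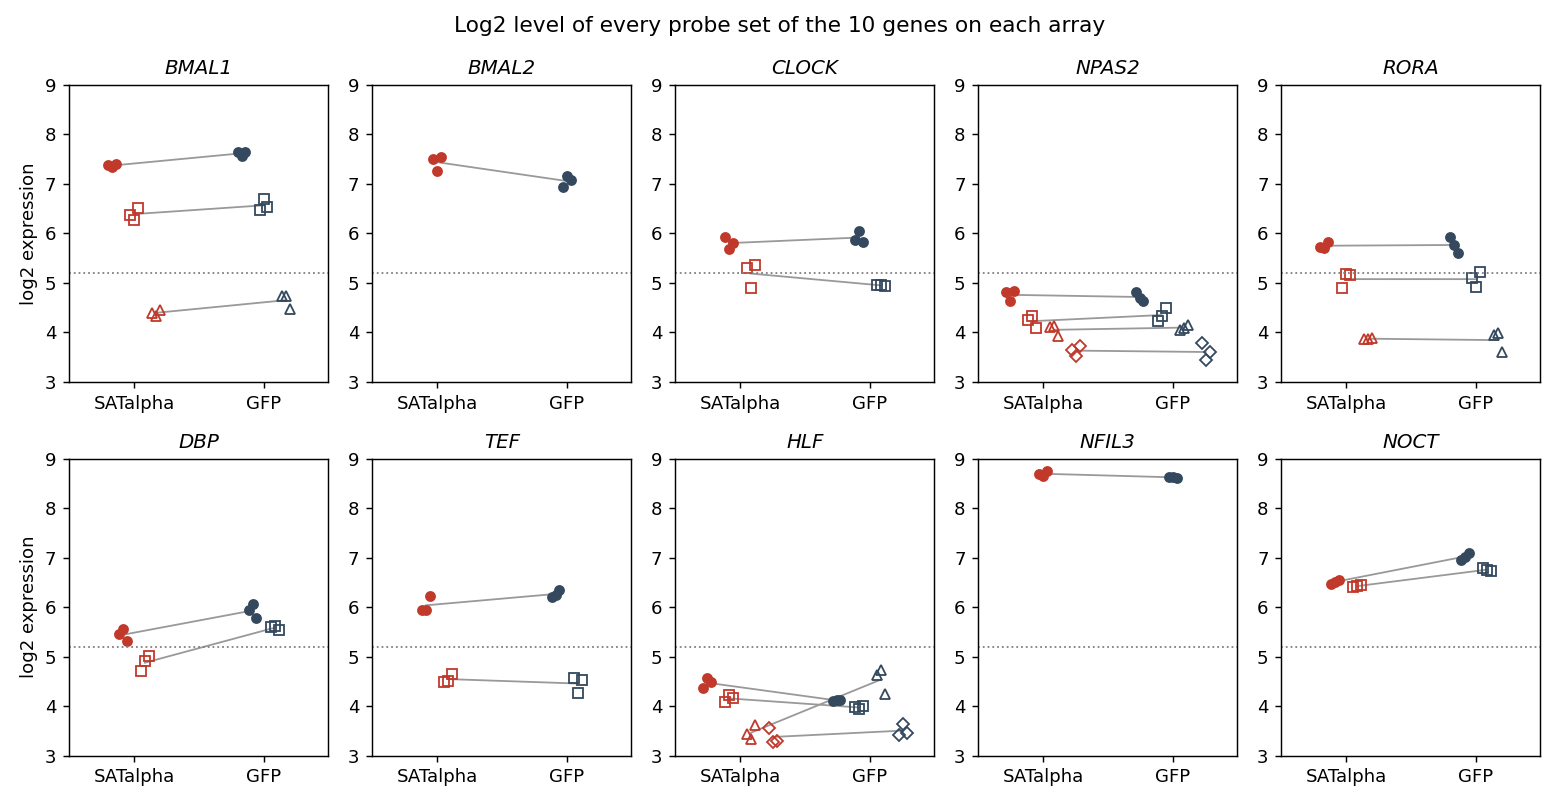
Log2 expression (vertical axis) of all 24 probe sets on the 3 SATalpha arrays (red, left) and the 3 GFP arrays (blue, right), 1 panel per gene and 1 symbol shape per probe set. Filled symbols mark the brightest probe set of a gene, grey lines join group means and the dotted line is the floor of 5.19. Both NOCT and both DBP probe sets sit lower with SATalpha, BMAL2 sits higher, and the HLF probe sets go different ways.

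Among the partners that form the activating pair, BMAL1 and BMAL2 differed in opposite directions. The brightest BMAL1 probe set read 7.38, 7.33 and 7.40 with SATalpha, against 7.65, 7.57 and 7.64 with GFP. The 3 SATalpha values lay below the 3 GFP values, and both groups were tight. BMAL1 averaged 7.37 ± 0.04 with SATalpha and 7.62 ± 0.04 with GFP (SD, n = 3 each). It fell by 0.25 on the log2 scale (SE 0.06, limma adjusted p = 0.00703), a ratio of 0.842. The other BMAL1 probe sets were lower by similar amounts but did not pass when all 44988 probe sets with 1 symbol were tested. One averaged 6.39 ± 0.12 with SATalpha and 6.57 ± 0.11 with GFP, a difference of -0.18 (limma adjusted p = 0.236), with overlapping groups. The dimmest averaged 4.40 ± 0.06 with SATalpha and 4.65 ± 0.15 with GFP, a difference of -0.26 (limma adjusted p = 0.192), with groups that did not overlap. In that test of probe sets the brightest one passed (adjusted p = 0.0159), and 6 of 13 alternatives ended its call, with adjusted p-values from 0.00823 to 0.0891 over the 13. Among the 6 were the fits without GFP replicate 1 (-0.24), GFP replicate 3 (-0.24) or SATalpha replicate 1 (-0.25).

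BMAL2, a paralogue that can also pair with CLOCK, had a single probe set. It read 7.51, 7.26 and 7.55 with SATalpha, against 6.93, 7.16 and 7.08 with GFP. The groups did not overlap, although SATalpha replicate 2 stood close to the highest GFP array. BMAL2 averaged 7.44 ± 0.16 with SATalpha and 7.06 ± 0.11 with GFP (SD, n = 3 each), and it rose by 0.38 (SE 0.08, limma adjusted p = 0.00537), a ratio of 1.30. The difference was 0.47 without SATalpha replicate 2 and 0.32 without GFP replicate 1. In the test of probe sets its adjusted p was 0.0103, and it did not pass there once GFP replicate 1 (0.32, adjusted p = 0.0736) or SATalpha replicate 1 (0.34, adjusted p = 0.0689) was left out.

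CLOCK, the partner of BMAL1 with acetyltransferase activity, gave probe sets of opposite sign. The brighter read 5.92, 5.69 and 5.81 with SATalpha, against 5.87, 6.05 and 5.83 with GFP. The groups overlapped, and the difference was -0.11 (95% interval -0.31 to 0.08, limma adjusted p = 0.413). The dimmer, with a mean under the floor, read 5.30, 4.91 and 5.36 with SATalpha, against 4.97, 4.96 and 4.93 with GFP. Here 2 SATalpha arrays stood above all GFP arrays, while SATalpha replicate 2 stood below them. This probe set differed by 0.24 (adjusted p = 0.263 over probe sets), and passed without SATalpha replicate 2 (0.38, adjusted p = 0.0460). The mean of both probe sets differed by 0.06 and turned the sign of the gene's value. SATalpha replicate 2 was the lowest of its group in BMAL2 and in both CLOCK probe sets. The same array was also lowest in every BMAL1 probe set, in NFIL3 and in the brightest probe sets of TEF, RORA and NPAS2. It was not the lowest in the brightest probe sets of DBP, HLF or NOCT.

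NPAS2, which can stand in for CLOCK, lay under the floor in all 4 of its probe sets. Its brightest averaged 4.76 ± 0.11 with SATalpha and 4.72 ± 0.09 with GFP (SD, n = 3 each). Differences of the 4 ran from -0.12 to 0.04, all with overlapping groups, and the adjusted p-values over probe sets were 0.598 to 0.933. RORA, the receptor that activates BMAL1, read 5.72, 5.71 and 5.83 with SATalpha, against 5.93, 5.76 and 5.61 with GFP. The difference was -0.01 (95% interval -0.22 to 0.19, limma adjusted p = 0.934). The other RORA probe sets differed by 0.00074 and 0.03, also with overlapping groups.

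**Figure D2:**
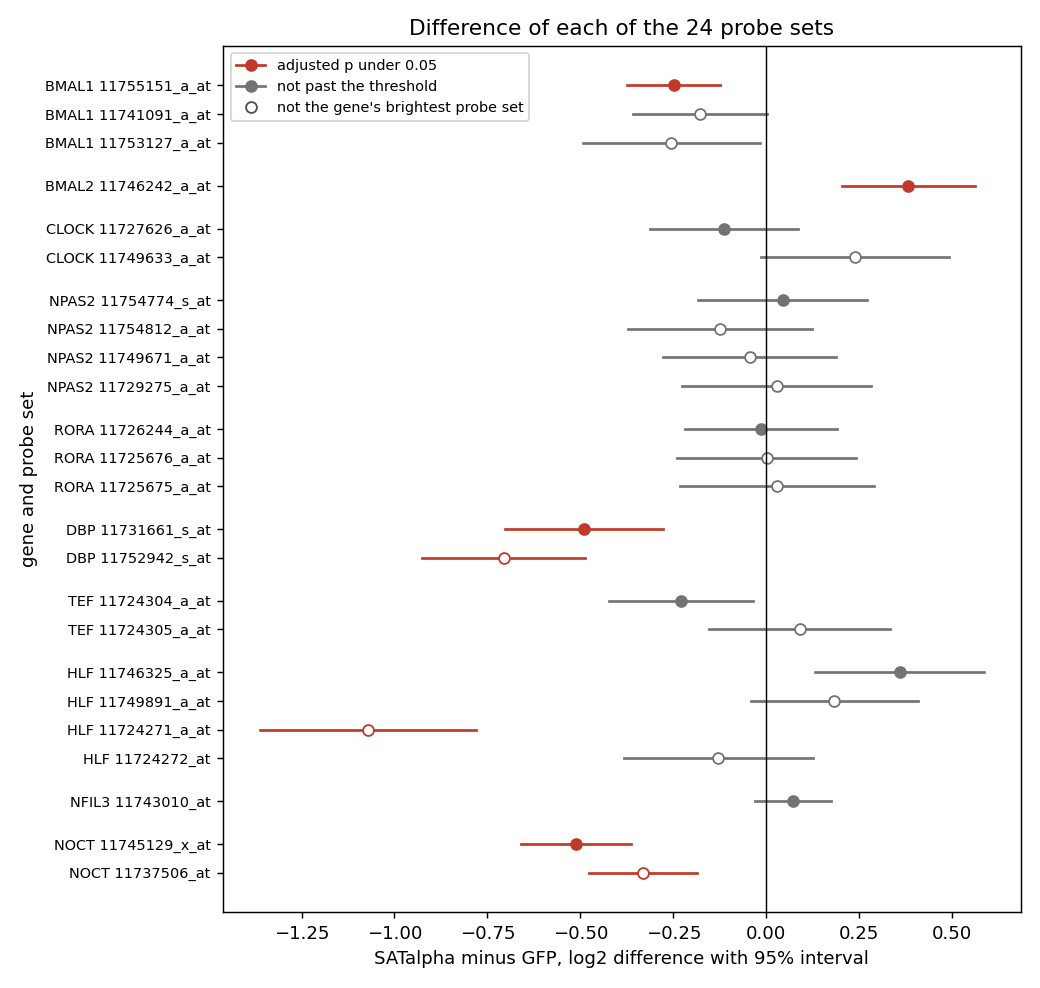
Log2 difference, SATalpha minus GFP, with its 95% interval for each of the 24 probe sets, from limma over all 44988 probe sets with 1 symbol. Red marks the 7 that passed an adjusted p of 0.05, and open circles are probe sets that were not the brightest of their gene. The 6 red points left of 0 belong to BMAL1, DBP, HLF and NOCT, and the red point right of 0 is BMAL2.

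Of the PAR bZIP factors, DBP fell, TEF did not pass, and the probe sets of HLF went different ways. DBP, the albumin D-box binding protein, is one of the most strongly cycling transcripts known from mouse liver. Its brightest probe set read 5.46, 5.55 and 5.31 with SATalpha, against 5.95, 6.07 and 5.78 with GFP. The second read 4.70, 4.92 and 5.01 with SATalpha, against 5.60, 5.62 and 5.54 with GFP. In both, every SATalpha array stood below every GFP array, and the gap was wider in the second. DBP averaged 5.44 ± 0.12 with SATalpha and 5.93 ± 0.14 with GFP (SD, n = 3 each). It fell by 0.49 (SE 0.10, limma adjusted p = 0.00307), a ratio of 0.712. The second probe set fell by 0.71 (SE 0.10, adjusted p = 0.000593 over probe sets, with no filter). Its SATalpha mean of 4.88 lay under the floor and its GFP mean of 5.58 above it. Both DBP probe sets are of a kind that can match several transcripts, so DBP had no value when such probe sets were left out.

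TEF, the thyrotroph embryonic factor, read 5.95, 5.94 and 6.22 with SATalpha, against 6.21, 6.25 and 6.34 with GFP. SATalpha replicate 3 reached into the GFP range. TEF averaged 6.04 ± 0.16 with SATalpha and 6.27 ± 0.07 with GFP (SD, n = 3 each), and the difference of -0.23 did not pass (SE 0.09, limma adjusted p = 0.0832). Without SATalpha replicate 3 the difference was -0.32 and passed (adjusted p = 0.0110). The other TEF probe set, under the floor, averaged 4.55 ± 0.09 with SATalpha and 4.46 ± 0.16 with GFP, with overlapping groups. The mean of both TEF probe sets differed by -0.07.

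HLF, the hepatic leukemia factor, lay under the floor in all 4 of its probe sets, and these did not share a direction. One read 3.43, 3.34 and 3.62 with SATalpha, against 4.64, 4.73 and 4.24 with GFP. It averaged 3.46 ± 0.14 with SATalpha and 4.54 ± 0.26 with GFP and fell by 1.07 (SE 0.14, adjusted p = 0.000192 over probe sets), the widest gap among the 24. The brightest HLF probe set went the other way, with 4.37, 4.58 and 4.48 for SATalpha, against 4.10, 4.13 and 4.12 for GFP. It differed by 0.36 (adjusted p = 0.0502 over probe sets), just short of the threshold. The other 2 averaged 4.16 ± 0.07 and 3.38 ± 0.16 with SATalpha, against 3.97 ± 0.02 and 3.51 ± 0.12 with GFP. Without a filter, when the brightest probe set stood for the gene, HLF was called higher by 0.36 (limma adjusted p = 0.0341). The direction of HLF therefore depends on the probe set, and no direction is given for the gene.

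NFIL3, the D-box repressor that opposes DBP, TEF and HLF, read 8.69, 8.66 and 8.74 with SATalpha, against 8.63, 8.63 and 8.61 with GFP. The SATalpha arrays stood above the GFP arrays by a narrow margin. The difference was 0.07 (95% interval -0.03 to 0.17, limma adjusted p = 0.293). NFIL3 thus had no call beside the 2 called DBP probe sets, and the difference between the genes was not tested.

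NOCT had the lowest adjusted p of the 8 tested genes. Its brightest probe set read 6.46, 6.52 and 6.55 with SATalpha, against 6.96, 7.01 and 7.10 with GFP, and the second read 6.40, 6.42 and 6.46 with SATalpha, against 6.79, 6.76 and 6.72 with GFP. The groups stood apart in both. NOCT averaged 6.51 ± 0.04 with SATalpha and 7.02 ± 0.07 with GFP (SD, n = 3 each), and it fell by 0.51 (SE 0.07, limma adjusted p = 0.000141), a ratio of 0.701. The second probe set averaged 6.43 ± 0.03 with SATalpha and 6.76 ± 0.03 with GFP and fell by 0.33 (SE 0.07, adjusted p = 0.00708 over probe sets). The brightest is of a kind that can match several transcripts. With such probe sets left out, the fall of the gene was 0.33 in place of 0.51, and it still passed (limma adjusted p = 0.00338).

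Over all 24 probe sets, 6 fell and 1 rose, where 4.37% of the 44988 probe sets fell, 4.23% rose and 8.61% passed in either direction. The groups did not overlap in 11 of the 24, against 26.2% of all probe sets. Of the 24, 11 had a mean above the floor, the second DBP probe set among them only through its GFP values. Probe sets of 1 gene share its RNA and are not independent of each other.

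The other genes of the clock loop were read from lists chosen with earlier results of these data known. Of 10 repressors, 9 had a probe set of their own and 7 were tested. The test called 4 of them lower and 0 higher, and their median log2 difference was -0.40. Over all tested genes 13.0% fell, 7.72% rose and the median was -0.02. One of the 4, PER2, had a mean under the floor with SATalpha and was tested only through its GFP values. Without PER2, a setting added after seeing the data, 3 of 6 were lower and the median was -0.29. BHLHE41 and CIART, which repress the activating pair, had ratios of 0.374 and 0.409 (limma adjusted p = 1.05e-08 and 5.87e-08). The brightest BHLHE41 probe set is of a kind that can match several transcripts. The other BHLHE41 probe sets differed less, by -0.93 to -0.20. With such probe sets left out, BHLHE41 differed by -0.93 and still passed (limma adjusted p = 0.000241). CRY1, a cryptochrome that binds and inhibits the CLOCK and BMAL1 pair, averaged 9.53 ± 0.06 with SATalpha and 9.92 ± 0.07 with GFP (SD, n = 3 each). It fell by 0.40 (limma adjusted p = 6.02e-05). PER2, a partner of the cryptochromes whose window above holds the D-box letters, averaged 4.92 ± 0.05 with SATalpha and 5.47 ± 0.16 with GFP. Over all 6 arrays its mean was 5.20, just above the floor. It fell by 0.55 (limma adjusted p = 0.00185; 0.00228 with no filter), and its other probe sets differed by -0.77 to 0.14. With any 1 GFP array left out, or as the mean of its probe sets, PER2 had no value in the filtered test. PER1, chosen after its value was seen, lay under the floor at 3.97 ± 0.48 with SATalpha and 4.86 ± 0.16 with GFP. The SATalpha spread of PER1 was wide, and its other probe sets differed by -0.22 to 0.02. CRY2 also lay under the floor, with a difference of -0.0014, and NR1D1 had no probe set of its own. The tested repressors that did not pass were PER3 (-0.19, limma adjusted p = 0.104), BHLHE40 (-0.05, limma adjusted p = 0.577) and NR1D2 (-0.0069, limma adjusted p = 0.946).

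Genes that modify clock proteins or act as cofactors had 3 lower and 0 higher of 16 tested, with a median of -0.10. The share over all tested genes was 13.0% lower and 7.72% higher. NONO, a partner of the PER proteins, fell by 0.15 (limma adjusted p = 0.00404), although the mean of its probe sets differed by -0.02 and did not pass. PPARGC1A, a coactivator of ROR receptors, averaged 5.12 ± 0.21 with SATalpha and 5.60 ± 0.21 with GFP (SD, n = 3 each) and fell by 0.48 (limma adjusted p = 0.0158). Its SATalpha mean lay under the floor, so it too was tested only through its GFP values, and with no filter its adjusted p was 0.0211. Without it, 2 of 15 modifiers were lower. PPARGC1A did not pass once GFP replicate 2 or SATalpha replicate 2 was left out (-0.36 in both). CSNK1D, a kinase of the PER proteins, fell by 0.15 (limma adjusted p = 0.0264), but did not pass once GFP replicate 1, 2 or 3 or SATalpha replicate 1 was left out (-0.16, -0.14, -0.14 and -0.13), nor as the mean of its probe sets (-0.03).

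Output genes known from E-boxes or ROREs had 1 higher and 1 lower of 11 tested, with a median of -0.0030. Among all tested genes 7.72% were higher and 13.0% lower. WEE1, a kinase that holds cells before mitosis, averaged 9.56 ± 0.06 with SATalpha and 9.29 ± 0.05 with GFP (SD, n = 3 each) and rose by 0.27 (limma adjusted p = 0.00106). KLF10, a zinc finger factor, fell by 0.35 (limma adjusted p = 0.00118). Of 7 genes known from liver as outputs of the PAR bZIP factors, 3 were tested. ALAS1, the first enzyme of heme synthesis, fell by 0.26 (limma adjusted p = 0.0111), but did not pass once GFP replicate 1 was left out (-0.23), and the other 2 did not pass.

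**Figure D3:**
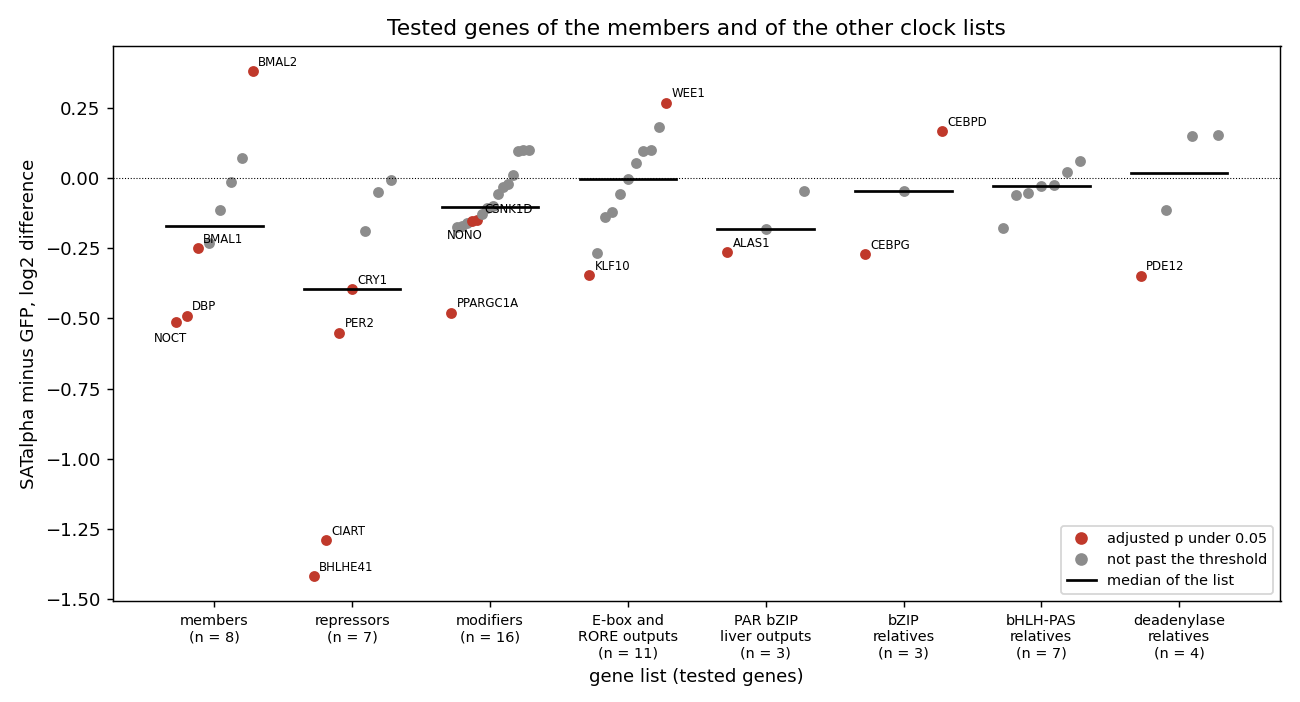
Log2 difference, SATalpha minus GFP, of each tested gene of the members and of the 7 other lists, with the number tested under each list and a black bar at its median. Red genes passed an adjusted p of 0.05. Among the repressors the 4 red genes lie between -1.42 and -0.40, while no relative of the bHLH-PAS family passed.

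Relatives of these genes outside the clock were read the same way. Of 7 tested relatives of the bHLH-PAS family, to which BMAL1, CLOCK and NPAS2 belong, 0 passed by limma, 0 by the unmoderated test, and 1 had an unadjusted p under 0.05. That 1 was AHR, the dioxin receptor, which differed by -0.18 (adjusted p = 0.118). As the mean of its probe sets AHR passed (-0.21, limma adjusted p = 0.0261), and without SATalpha replicate 3 it differed by -0.07. NPAS3, a factor known from brain, differed by 0.06 (adjusted p = 0.657). Of 3 tested bZIP relatives of the CEBP family, CEBPG fell by 0.27 (limma adjusted p = 0.00180) and CEBPD rose by 0.17 (limma adjusted p = 0.0486). CEBPD did not pass once GFP replicate 1, 2 or 3 or SATalpha replicate 1 or 2 was left out (0.15, 0.17, 0.18, 0.14 and 0.14), and differed by 0.28 without probe sets that can match several transcripts. Of 4 tested relatives of nocturnin, PDE12, a mitochondrial deadenylase, fell by 0.35 (limma adjusted p = 0.00125), while its dimmer probe sets lay between -0.23 and 0.12. The mean of its probe sets differed by -0.15. Over all 71 genes of the 7 lists, 64 had a probe set of their own and 51 were tested, of which 11 fell and 2 rose. This count stands beside the 13.0% of all tested genes that fell and the 7.72% that rose, and PER2 and PPARGC1A are among the 11.

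The genes whose pattern over the 6 arrays was most like that of NOCT were ACTA2, CYP2R1 and CCNF. Likeness was the root-mean-square difference of centred log2 values, which was 0.0312, 0.0318 and 0.0369. For DBP the most similar were ZNF23, DNMBP and H4C3, at 0.0718, 0.0825 and 0.0830. Most of each pattern is the step between the groups, so genes with a fall of similar size and tight replicates score as alike.

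**Figure D4:**
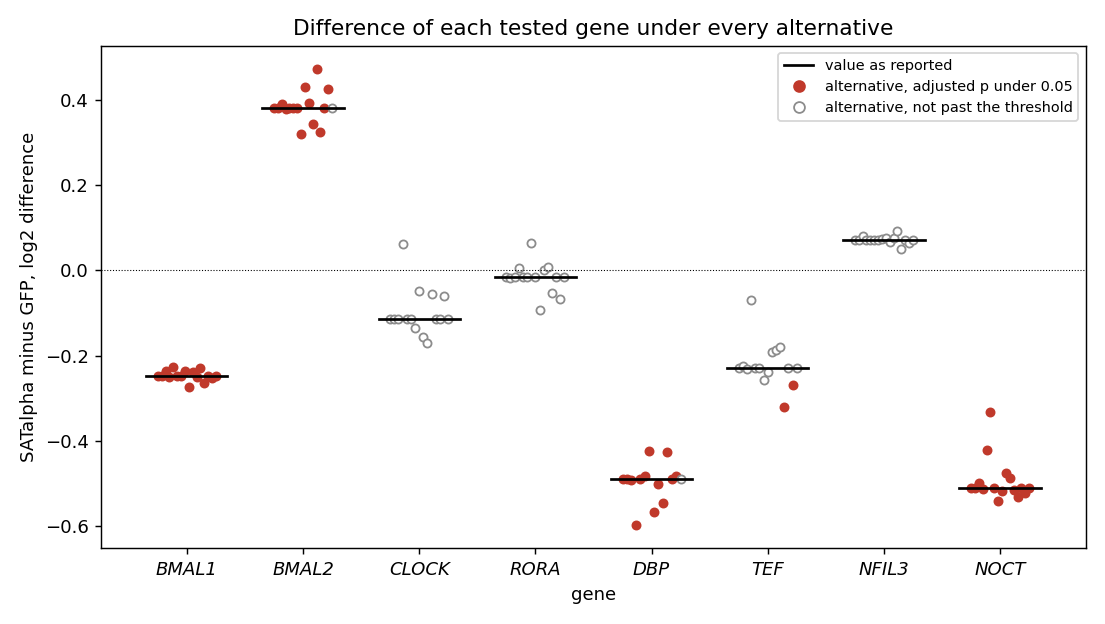
Log2 difference, SATalpha minus GFP, of the 8 tested genes as reported (black bar) and under each alternative way of processing (points, red where the adjusted p was under 0.05). BMAL1 and NOCT stayed past the threshold in all alternatives shown, BMAL2 and DBP in all but the unmoderated test, and CLOCK, RORA and NFIL3 in none.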

How the data were processed

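Total RNA of 6 wells was labelled with a kit for 3′ expression arrays, per the labels' protocols. The deposited values are log2 expression, normalized between arrays by the authors, and the base was read from the values. MAS5 and RMA are listed, without a role, per the submitters' processing notes. RMA-like values compress small differences of dim genes, and no detection call was available. Gene names came from the platform annotation, in which 44988 probe sets had 1 symbol, 1832 had several, 2473 had none and 79 were controls. Symbols needed 0 updates.

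Comparisons were SATalpha minus GFP in limma 3.58.1 (R 4.3.3; lmFit, then eBayes with trend), over 10879 genes and again, unfiltered, over 44988 probe sets, each with Benjamini-Hochberg adjustment. Standard errors and 95% intervals are limma's. Precision is limited by the number of arrays (median SE per gene 0.06). The fit was tested on simulated data. The 3′ minus 5′ control of GAPDH was 0.393 ± 0.068 with SATalpha and 0.393 ± 0.046 with GFP (exact permutation p = 1), and that of ACTB was 2.01 ± 0.13 with SATalpha and 2.06 ± 0.07 with GFP (exact permutation p = 0.6). Two-sided tests of 3 against 3 arrays cannot go below 0.1. The labels and the values give no scan date or batch.

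The members and lists were chosen with earlier results of these data known. Named genes were all members, at most 4 called genes of each list in order of p, or 2 as values where none passed, and the 3 genes most like each of the 2 members with the largest difference. PER1, the other repressors that were not called and the cell type markers were named outside this rule. Alternatives were other filters, normalizations, probe set rules and variance models, a replicate block, and each array left out in turn. Of the 71 genes of the other lists, 64 were analysed, and the rest were not analysed here.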

Additional observations from a re-analysis of the deposited data

How the results depend on the processing

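Of 123 recalculated values of the 8 tested genes, 114 kept their direction and their side of the threshold, 2 lost the call, 2 gained one and 5 changed sign. With an unmoderated test, 717 genes passed across the array, with 2 of the members, 5 of the other clock genes and 1 of the 24 probe sets, and BMAL2 (0.38, adjusted p = 0.131) and DBP (-0.49, adjusted p = 0.0805) were the losses. With array weights 3328 genes passed across the array in place of 2259, 20 of the other clock genes in place of 13, and TEF passed (-0.27, adjusted p = 0.0132). Deviations from the group means of same-numbered arrays correlated at -0.0035, -0.24 and -0.29 across genes. For differently numbered arrays the values ran from -0.13 (SATalpha replicate 2 with GFP replicate 1) to 0.34 (SATalpha replicate 2 with GFP replicate 3). Deviations cancel within each group, so these values constrain each other and cannot decide whether same-numbered wells were handled together. The source of these correlations was not tested. With a replicate block 1300 genes passed in place of 2259, and 4 members and 10 of the other clock genes passed. Leaving out 1 array gave 1209 to 2527 genes. Those fits have fewer arrays.

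Sign changes concerned differences near 0 that passed in no setting. As the mean of all probe sets CLOCK was at 0.062 and RORA at 0.0049. The CLOCK mean joins probe sets at -0.11 and 0.24, which each kept their sign in all alternatives. Leaving out 1 array, RORA ranged from -0.093 to 0.065, and its dimmer probe sets from -0.079 to 0.089 and from -0.095 to 0.10. The brighter of these was at -0.0071 under quantile normalization, -0.00057 under median centring and -0.046 with array weights. The dimmer NPAS2 probe sets ranged from -0.082 to 0.023 and from -0.055 to 0.11, and the dimmer TEF probe set from -0.0014 to 0.14, with 1 array left out. The cause was not tested. HLF and NPAS2 lie under the floor, where the values could not be set against background.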
